A study of Mus musculus with 2 samples.

Results

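The 9 genes Zeb1, Zeb2, Bmi1, Bap1, Cfl2, Ets1, Elmo2, Sec23a and Kdr, all reported as targets of the miR-200 microRNA family, were followed across the cell classes of the mouse mammary gland. They were taken by symbol from a list that was chosen with earlier results of these data known. All 9 of 9 were found among the 31053 counted genes. Single-cell messenger RNA counts came from 2 libraries, 1 per group, of cells enriched by FACS from the glands of C57BL/6 mice. The cKO library came from mice with K8-CreERT2 and both alleles of miR-200c/141 flanked by loxP sites (miR-200c/141-flox/flox), and the Ctrl library from mice with miR-200c/141-flox/flox alone. Mice of both groups received tamoxifen at 8 to 10 weeks of age and glands were taken 4 weeks later, while a separate age label reads 8 weeks. K8-CreERT2 is a tamoxifen-dependent Cre recombinase under the promoter of keratin 8, a keratin of luminal cells. The labels give neither the number of mice per library nor the share of cells in which the locus was deleted, and the counts hold no microRNA, so the deletion could not be checked.

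MicroRNAs of the miR-200 family are abundant in epithelial cells, pair through their seed with sites in the 3′ untranslated regions (UTRs) of messenger RNAs, and lower the output of these messengers. Their best known targets, the repressors ZEB1 and ZEB2, bind E-boxes in epithelial genes such as the one for E-cadherin and in the miR-200 genes themselves, so that the microRNAs and the repressors hold each other down. Endothelial cells and fibroblasts lack most of the epithelial programme that these repressors silence, which makes the luminal and basal epithelium and the stromal cells of 1 gland a natural contrast for the target genes.

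The family falls into 2 seed groups, and the deleted locus holds a member of each. The mature sequences are shown, 5′ to 3′ with bases 2 to 8 in capitals, because the seed decides which sites were looked for (RefSeq, GRCm38.p6).
mmu-miR-200c-3p: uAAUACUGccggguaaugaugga
mmu-miR-200b-3p: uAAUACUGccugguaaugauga
mmu-miR-429-3p: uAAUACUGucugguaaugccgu
mmu-miR-141-3p: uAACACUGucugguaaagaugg
mmu-miR-200a-3p: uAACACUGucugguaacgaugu
The hairpins of miR-200c and miR-141 lie at chr6:124718322-124718390 and chr6:124717914-124717985 on the minus strand. Those of miR-200b, miR-200a and miR-429 lie on chromosome 4 and are outside the floxed locus, so both seeds remain encoded in cKO cells.

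In the longest 3′ UTR annotated for each gene (GENCODE M21, GRCm38), 8 of the 9 genes held at least 1 site for a deleted microRNA, defined as the 7 bases opposite its bases 2 to 8 (CAGTATT for miR-200c and CAGTGTT for miR-141, sense strand only). Zeb1 and Zeb2 each held 5 miR-200c and 4 miR-141 sites. Cfl2 held 2 and 1, and Bap1 held 1 of each. Bmi1 (1 site), Ets1 (3), Sec23a (3) and Kdr (2) had sites for miR-200c alone, and Elmo2 had none for either. Of 21037 genes with an annotated 3′ UTR, 13.3% held a miR-200c site, 17.2% a miR-141 site and 25.7% either. The genes' UTRs ran from 1105 bases in Bap1 to 4941 bases in Zeb2, against a median of 960 bases over all genes, and longer UTRs hold more matches of any kind. The site nearest the start of the UTR is printed for each gene and microRNA, with the site in capitals, so that the pairing can be read; those of Zeb1 are not shown.
Zeb2 miR-200c site at chr2:44988169-44988192, minus strand: actaccatacatCAGTATTttatt
Zeb2 miR-141 site at chr2:44988353-44988376, minus strand: aaaaattttgtaCAGTGTTaaggc
Bmi1 miR-200c site at chr2:18685156-18685179, plus strand: cataacaggaaaCAGTATTgtatg
Bap1 miR-200c site at chr14:31259583-31259606, plus strand: gacctagcccctCAGTATTaccat
Bap1 miR-141 site at chr14:31259500-31259523, plus strand: gctctttgccttCAGTGTTgtggc
Cfl2 miR-200c site at chr12:54860967-54860990, minus strand: taagaagcctgtCAGTATTgccat
Cfl2 miR-141 site at chr12:54860536-54860559, minus strand: atcctagtatctCAGTGTTcattc
Ets1 miR-200c site at chr9:32754991-32755014, plus strand: taaattttgtgcCAGTATTttttt
Sec23a miR-200c site at chr12:58959780-58959803, minus strand: ttttgcctgataCAGTATTataat
Kdr miR-200c site at chr5:75933449-75933472, minus strand: cccccaagtcctCAGTATTttagc
In Ets1 the other 2 sites start at bases 629 and 637 of the UTR and lie 1 base apart. A match is a description of the sequence and does not show that the site is used.

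**Figure D1:**
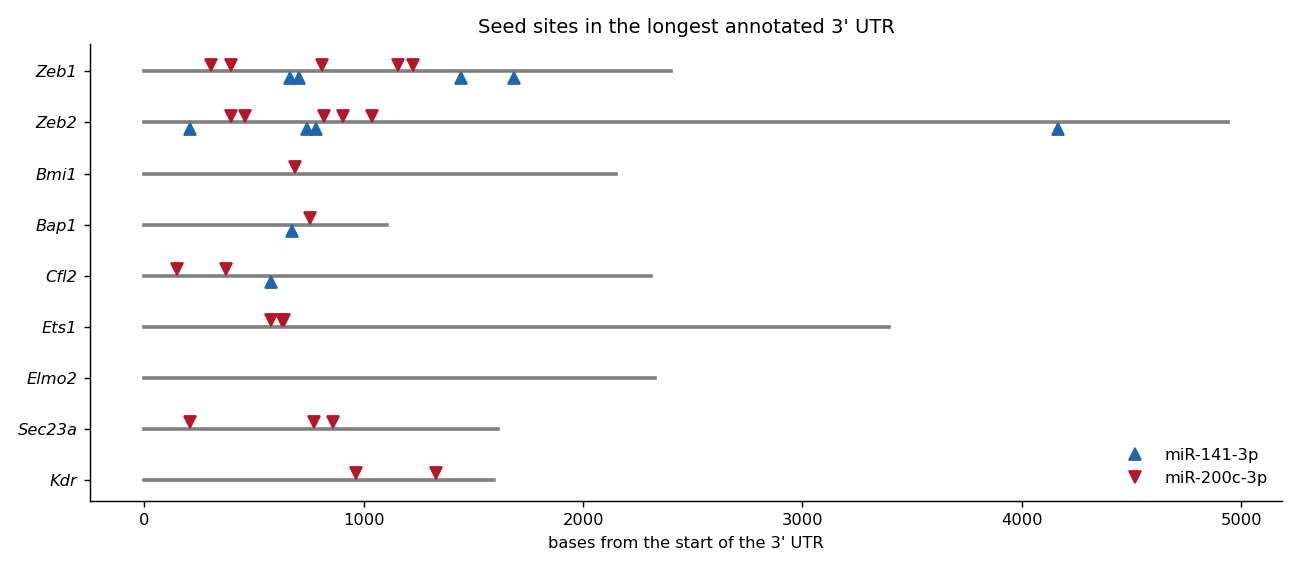
Positions of the 7-base seed sites of miR-200c-3p (red, pointing down) and miR-141-3p (blue, pointing up) along the longest annotated 3′ UTR of each gene (grey line); the horizontal axis gives bases from the start of the UTR. Zeb1 and Zeb2 carry 9 sites each, Kdr 2 and Elmo2 none.

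The cKO library held 103668011 unique molecular identifiers (UMIs) in 6257 barcodes and the Ctrl library 95520633 in 4237, and 6 barcode sequences occurred in both. After filtering, 5438 cKO cells with a median of 13905 UMIs and 3389 Ctrl cells with a median of 19799 remained. Gates on marker genes, none of which is a gene under study, gave 3856 and 2164 luminal cells in cKO and Ctrl. They gave 938 and 1063 basal cells, 461 and 104 endothelial cells, and 18 and 5 fibroblasts. The gated classes carried their own markers, with Cdh5 at 383 CPM (UMIs per 1000000 of the class total) in endothelial against 2.31 CPM in luminal cells of cKO, and at 446 against 0.13 CPM in Ctrl. Luminal cells were split into hormone-sensing cells (1554 and 690) and progenitors (1590 and 1054), and endothelial cells of cKO into 72 lymphatic and 364 blood endothelial cells. Glycam1, a mucin gene of high endothelial venules and of milk-secreting epithelium, made up 11.6% of the endothelial UMIs in cKO and 12.5% in Ctrl. The fibroblast gate also held Rgs5, a pericyte marker, in 15 of 18 cells in cKO and 3 of 5 in Ctrl, and the chemokine gene Cxcl13 in 14 of 18 and 3 of 5, so these few cells are called fibroblast-gated only.

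Levels are sums of UMIs over a class as CPM, with exact 95% Poisson intervals in parentheses, and intervals cover counting error only. With 1 library per group there was no test between groups. A ratio was called between classes at 2-fold and between cKO and Ctrl at 1.5-fold or more, with at least 20 UMIs over both sums. Fewer cells holding a messenger and less messenger per cell are not separated by these sums.

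Zeb1, Zeb2, Ets1 and Kdr were called higher in endothelial than in luminal cells of both libraries, while Bap1, Cfl2 and Elmo2 were nearly level. Of the 9 genes, 5 were called higher and 0 lower in endothelial cells of cKO, where 16.9% of 14315 genes were called higher and 27.7% lower. In Ctrl, 4 were called higher and 0 lower, where 13.4% of 13841 genes were called higher and 28.1% lower. The median log2 ratio of the 9 genes was 1.5 in cKO and 0.97 in Ctrl, beside -0.24 and -0.30 over all genes compared. Endothelial cells also held more of 6 immune markers, 967 CPM in sum against 12.9 CPM in luminal cells of cKO and 1028 against 15.7 CPM in Ctrl, most of it from the antigen-presentation gene Cd74 at 867 and 941 CPM, while Laptm5 stood at 0.920 and 0.798 CPM. The part of these in the ratios was not tested.

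Zeb1, a ZEB repressor gene, stood at 76.4 CPM (71.3 to 81.8) in endothelial and 1.25 CPM (1.02 to 1.52) in luminal cells of cKO. In Ctrl it stood at 98.1 CPM (86.2 to 111) in endothelial and 2.05 CPM (1.74 to 2.40) in luminal cells. The log2 ratios were 5.93 and 5.58, or 61.0-fold in cKO and 47.8-fold in Ctrl, and the endothelial and luminal intervals lay far apart. Zeb2, its paralogue, stood at 8.65 CPM (6.99 to 10.6) in endothelial and 0.372 CPM (0.251 to 0.531) in luminal cells of cKO, from 94 and 30 UMIs. In Ctrl the 24 and 21 UMIs gave 9.57 CPM (6.13 to 14.2) and 0.273 CPM (0.169 to 0.417). Zeb2 was thus 23.2-fold higher in endothelium of cKO and 35.1-fold in Ctrl, with log2 ratios of 4.54 and 5.13.

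Kdr encodes the main VEGF receptor of blood vessels and had the widest gap. It stood at 123 CPM (117 to 130) in endothelial and 0.521 CPM (0.375 to 0.704) in luminal cells of cKO. In Ctrl it stood at 135 CPM (121 to 150) in endothelial and 0.0260 CPM (0.00314 to 0.0938) in luminal cells, where only 2 UMIs were counted. The log2 ratios, 7.88 and 12.34, differ through the luminal value, and the Ctrl interval of 10.48 to 15.39 shows how little 2 UMIs fix it. Ets1 encodes a transcription factor of endothelial and lymphoid cells and was well expressed in epithelium too. It stood at 268 CPM (258 to 278) in endothelial and 94.9 CPM (92.8 to 97.0) in luminal cells of cKO, and at 365 CPM (342 to 389) and 60.8 CPM (59.1 to 62.6) in Ctrl. The log2 ratio was 1.5 (1.44 to 1.56) in cKO and 2.58 (2.48 to 2.69) in Ctrl, so the intervals of the 2 libraries did not overlap.

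Sec23a, which encodes an inner-coat subunit of COPII vesicles leaving the endoplasmic reticulum, stood at 21.2 CPM in endothelial and 6.30 CPM in luminal cells of cKO, a log2 ratio of 1.75 (1.52 to 1.98). In Ctrl the levels were 15.6 CPM from 39 UMIs and 7.96 CPM, and the log2 ratio of 0.97 (0.46 to 1.43) lay just under 2-fold. Bmi1, a subunit of Polycomb repressive complex 1 that supports stem-cell self-renewal, lay just under 2-fold in both, with log2 ratios of 0.95 (0.74 to 1.15) and 0.87 (0.47 to 1.24). Scaling by TMM put Bmi1 at 1.11 in cKO and 1.16 in Ctrl and Sec23a at 1.26 in Ctrl, all then called higher. Its shift, subtracted from each ratio, was -0.16 in cKO and -0.30 in Ctrl. Cfl2, the muscle-type cofilin that severs actin filaments, had log2 ratios of 0.47 and 0.19. Bap1, a nuclear deubiquitinase that acts on histone H2A, had 0.44 and 0.31. Elmo2, which works with DOCK proteins to activate Rac, had 0.11 and -0.35 and is the gene without a seed site.

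**Figure D2:**
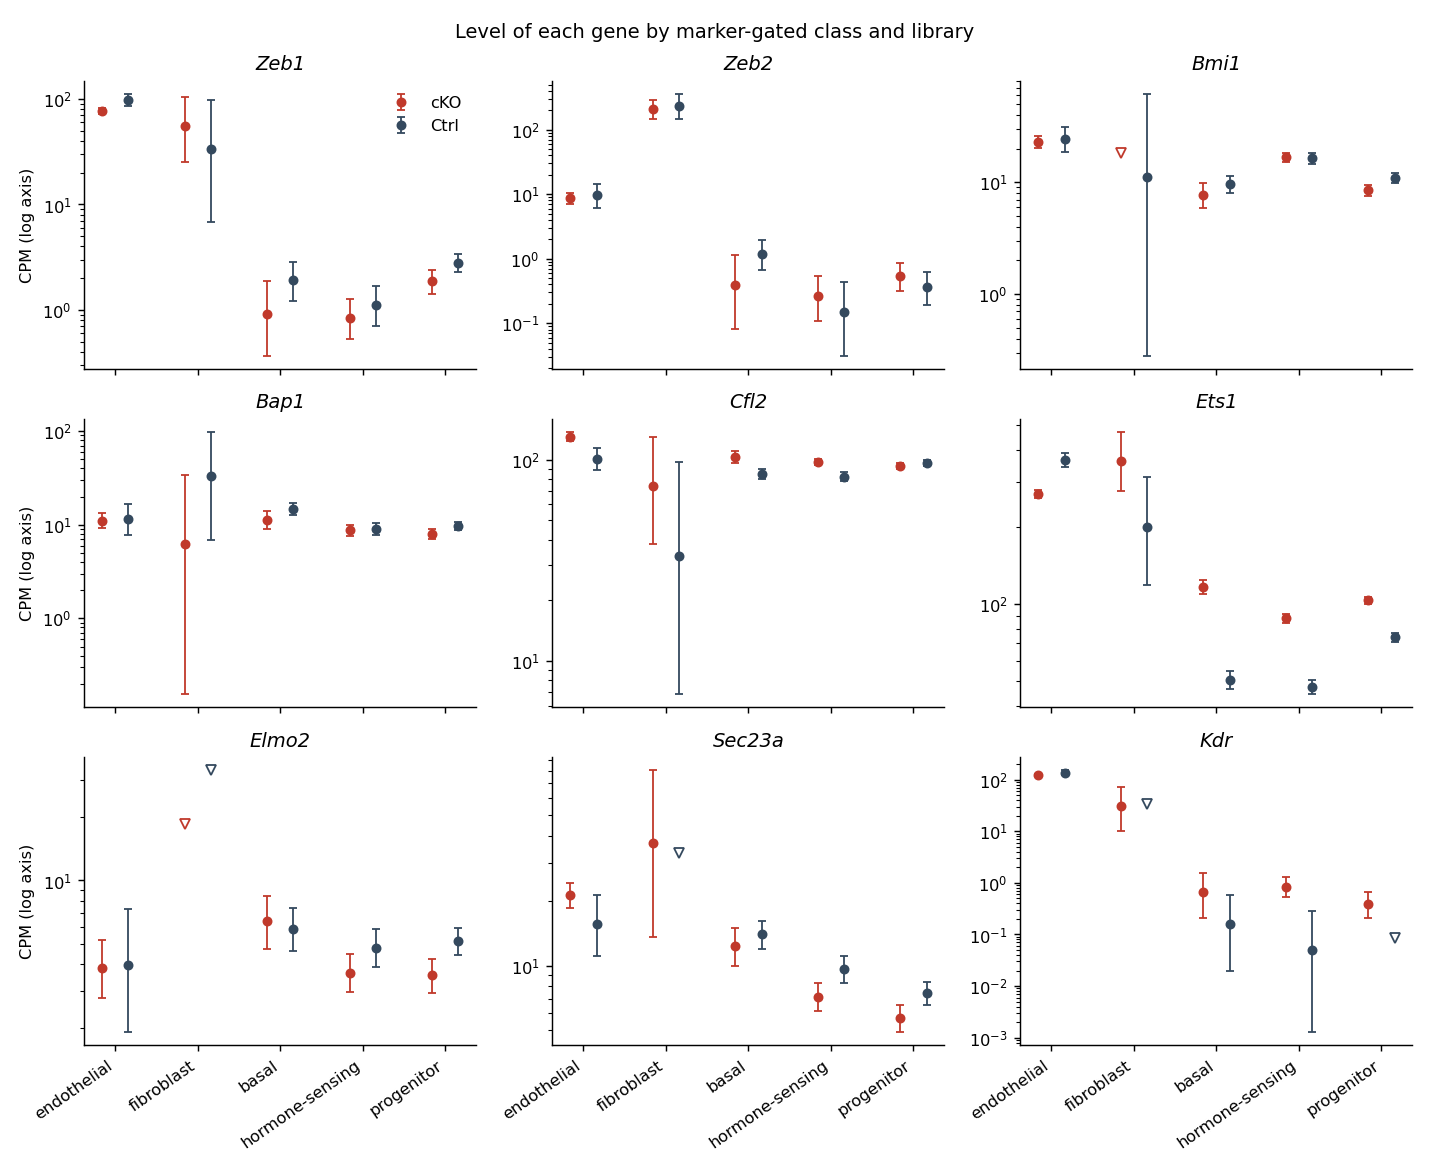
Level of each gene in CPM (log axis, its own range in each panel) in endothelial, fibroblast-gated, basal, hormone-sensing and progenitor cells, with cKO (red) left of Ctrl (dark blue). Points are sums over a class with exact 95% Poisson intervals, and open triangles mark the level of 3 UMIs where none was counted; Zeb1 and Kdr are highest in endothelial cells and Zeb2 in the fibroblast-gated cells.

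**Figure D3:**
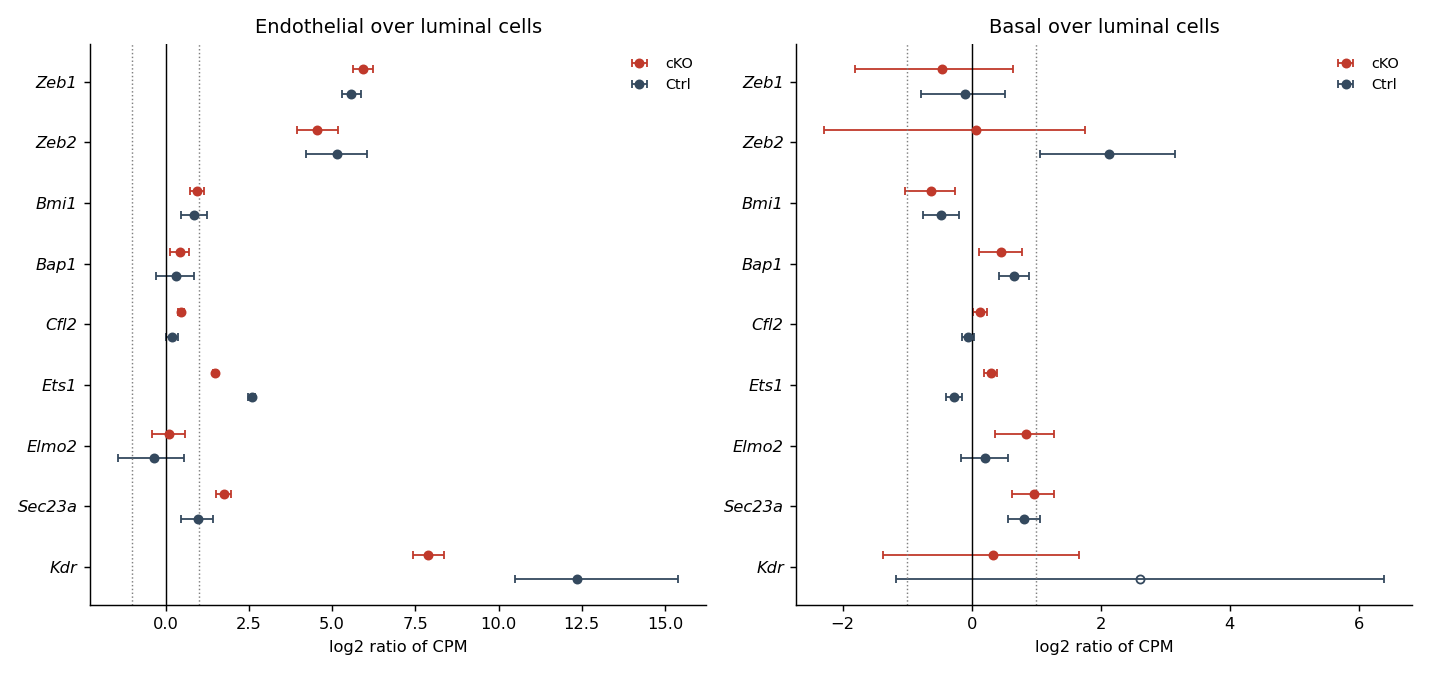
Log2 ratio of CPM for endothelial over luminal cells (left) and basal over luminal cells (right), with cKO (red) above Ctrl (dark blue) and exact 95% intervals; dotted lines mark 2-fold and open points had under 20 UMIs. In endothelial over luminal cells Zeb1, Zeb2, Ets1 and Kdr lie right of the dotted line in both libraries, while in basal over luminal cells only Zeb2 in Ctrl does among points with 20 UMIs or more.

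The share of cells with a UMI was compared after each cell was thinned to 3000 UMIs, since depth differs between classes. Zeb1 was found in 22.4% of 455 endothelial cells (exact Clopper-Pearson 95% interval 18.7 to 26.5) and 0.505% of 3761 luminal cells (0.304 to 0.788) in cKO. In Ctrl it was found in 26.7% of 101 endothelial cells (18.4 to 36.5) and 0.421% of 2137 luminal cells (0.193 to 0.798). Kdr was found in 29.7% of endothelial and 0.160% of luminal cells in cKO, and in 25.7% of endothelial and 0 of 2137 luminal cells in Ctrl. At 3 counts of the total, 0 allows a share of up to 0.140% of cells with a UMI at this depth and sets no limit on cells expressing Kdr, and 2 luminal cells held a Kdr UMI before thinning. Before thinning, Zeb1 was found in 70.1% of endothelial and 2.33% of luminal cells in cKO, at median depths of 21683 and 16374 UMIs, and in 72.1% and 5.82% in Ctrl, at 21152 and 29214 UMIs. The endothelial interval lay above the luminal interval for 5 of the 9 genes in cKO, as it did for 17.4% of all genes compared, and for 4 of the 9 in Ctrl, where it did for 9.44%.

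Basal cells, the contractile outer layer of the ducts, resembled luminal cells in most of these genes. Of the 9 genes, 0 were called higher and 0 lower over luminal cells in cKO, where 17.1% of genes were called higher and 25.1% lower. In Ctrl, 1 of 8 compared was called higher and 0 lower, where the shares were 14.9% and 29.0%. The called gene was Zeb2, at 1.19 CPM (0.666 to 1.96) in basal and 0.273 CPM in luminal cells, from 15 and 21 UMIs, and in cKO its basal level of 0.392 CPM rested on 3 UMIs. The 6 fibroblast markers outside the gates summed to 164 CPM in basal against 14.5 CPM in luminal cells of Ctrl, and to 116 against 5.97 CPM in cKO. Fibroblast gate markers varied in Ctrl basal cells. Col1a1 stood at 0.635 CPM against 2324 CPM in fibroblast-gated cells, and Lum at 0.159 against 918 CPM. Col1a2 stood at 12.4 against 2700 CPM and Dcn at 175 against 10535 CPM. The part of fibroblast RNA in the Zeb2 level was not tested. Sec23a came closest otherwise, with log2 ratios of 0.96 in cKO and 0.81 in Ctrl, and Bmi1 was the lowest at -0.63 and -0.47. Zeb1 had log2 ratios of -0.45 (-1.81 to 0.64) and -0.11 (-0.79 to 0.52), so neither library separated basal from luminal cells in Zeb1.

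The fibroblast-gated cells were few but gave the highest Zeb2 level of any class. Zeb2 stood at 209 CPM (145 to 293) in cKO, from 34 UMIs in 12 of 18 cells, and at 232 CPM (144 to 355) in Ctrl, from 21 UMIs in 4 of 5 cells. Zeb1 stood at 55.4 CPM (25.4 to 105) and 33.2 CPM (6.85 to 97.0), and Ets1 at 363 and 199 CPM. Over luminal cells, 5 of the 9 genes were called higher and 0 lower in cKO, where 16.8% of genes were called higher and 12.8% lower. In Ctrl, 4 were called higher and 1 lower of 8 compared, where the shares were 14.5% and 10.4%. In Ctrl the calls for Zeb1, Bap1 and Cfl2 rested on 3 UMIs each, and the intervals of Bap1 and Cfl2 include no difference. In cKO those for Kdr and Sec23a rested on 5 and 6 UMIs, and Elmo2 had none in either library. Within endothelium of cKO, lymphatic over blood endothelial cells had Zeb2 at 51.1 against 4.65 CPM (log2 ratio 3.46, interval 2.83 to 4.08), and Elmo2 at 16.3 against 2.32 CPM (log2 ratio 2.81, interval 1.76 to 3.82). These 2 genes were called higher and 0 lower, where 23.5% of genes were called higher and 8.94% lower in this comparison. Zeb1, at 117 against 71.7 CPM, and Kdr, at 129 against 126 CPM, were not called. TMM scaling subtracts 0.40 from each of these ratios, and under a stricter gate for the classes Elmo2 was not called. With 72 lymphatic cells in cKO and 6 in Ctrl, the Ctrl library gave no check.

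Within the luminal layer, Zeb1 was lower in hormone-sensing than in progenitor cells of both libraries. It stood at 0.838 against 1.87 CPM in cKO (log2 ratio -1.16, interval -1.93 to -0.43), and at 1.11 against 2.81 CPM in Ctrl (log2 ratio -1.34, interval -2.07 to -0.66). In cKO, 1 gene was called higher (Kdr) and 2 lower (Zeb1 and Zeb2), where 14.3% of genes were called higher and 9.37% lower. The Zeb2 call rested on 7 and 18 UMIs, with an interval of -2.53 to 0.30 that includes no difference, and was lost in 3 of 12 alternatives. The Kdr call rested on 22 and 13 UMIs, and the 22 came from 11 hormone-sensing cells, with 9 in 1 cell. It was kept in 6 of 12 alternatives, and the ratio turned to -0.24 when Krt8 and Krt18 were left out of the luminal gate. In Ctrl, 0 of 7 compared were called higher and 1 lower, Zeb1, where the shares were 13.4% and 10.4%, and with doublet calls kept the Zeb1 ratio was -0.998 and just missed the call. Bmi1 leaned the other way, with log2 ratios of 0.99 (0.77 to 1.21) and 0.59 (0.37 to 0.80), and was not called in either. Of the luminal cells with a Zeb1 UMI, progenitors made up 58.9% of 90 in cKO and 61.9% of 126 in Ctrl. Among luminal cells without one they made up 40.8% in cKO and 47.9% in Ctrl. Cells with a Zeb1 UMI were deeper and held more of 6 fibroblast markers outside the gates, 16.4 against 5.56 CPM in sum in cKO and 31.9 against 12.9 CPM in Ctrl. Their 6 endothelial markers outside the gates summed to 45.4 against 22.7 CPM in cKO and 28.4 against 29.3 CPM in Ctrl, and 6 immune markers to 71.8 against 10.7 CPM in cKO and 9.09 against 16.3 CPM in Ctrl. The part of RNA of other cells in the Zeb1 level was not tested.

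The question of the design was what changes in mammary cells when the miR-200c/141 locus is deleted, and the 9 genes gave calls in both directions. In luminal cells, 2 were called higher (Ets1 and Kdr) and 1 lower (Zeb1), where 12.8% of 14786 genes were called higher and 16.2% lower. The median log2 ratio of the 9 genes was -0.16, beside -0.12 over all genes. The genotype cannot be told apart from the mice, the dissociation or the sort, and median depth of luminal cells was 16374 UMIs in cKO and 29214 in Ctrl.

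Ets1 stood higher in cKO in each epithelial class, past 1.5-fold in all but progenitors. Its level was 94.9 CPM in cKO and 60.8 CPM in Ctrl in luminal cells, a log2 ratio of 0.64 (0.59 to 0.69). In hormone-sensing cells it was 87.8 and 47.4 CPM (log2 ratio 0.89, interval 0.78 to 1.0). In progenitors it was 103 and 73.9 CPM (log2 ratio 0.48, interval 0.41 to 0.55), which was not called at 1.5-fold but was past it under TMM (0.59) and median-of-ratios scaling (0.60). The largest ratio was in basal cells, at 116 CPM (109 to 124) in cKO and 50.3 CPM (46.5 to 54.4) in Ctrl (log2 ratio 1.21, interval 1.06 to 1.36). In endothelial cells the order was the opposite, with 268 CPM in cKO and 365 CPM in Ctrl (log2 ratio -0.45, interval -0.55 to -0.34) that was not called. With equal weight per cell the luminal ratio was 0.58 and was not called. Whether these ratios differ between classes was not tested.

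Zeb1 was lower in luminal cells of cKO. It stood at 1.25 CPM (1.02 to 1.52) in cKO and 2.05 CPM (1.74 to 2.40) in Ctrl luminal cells (log2 ratio -0.71, interval -1.09 to -0.34). The 6 fibroblast markers were lower in the same cells, at 5.97 CPM in cKO and 14.5 CPM in Ctrl with none at 0. So were 6 pericyte markers, at 12.4 CPM in cKO with none at 0 and 21.7 CPM in Ctrl with 1 at 0. The pericyte sum was lower outside the luminal class in Ctrl, at 3.81 CPM in basal and 10.8 CPM in endothelial cells. In cKO it was 2.87 CPM in basal and 13.5 CPM in endothelial cells. The part of fibroblast or pericyte RNA in the Zeb1 difference was not tested. Progenitors were 1590 of 3856 luminal cells in cKO and 1054 of 2164 in Ctrl, and hormone-sensing cells 1554 and 690. The part of this mix in the luminal ratio was not tested. In progenitors Zeb1 stood at 1.87 and 2.81 CPM (log2 ratio -0.59, interval -1.07 to -0.12). That call was kept in 7 of 12 alternatives, and TMM scaling, at -0.48, was among those that ended it. In basal cells 7 UMIs in cKO and 24 in Ctrl gave 0.914 and 1.90 CPM and a log2 ratio of -1.06, with an interval from -2.52 to 0.20 that includes no difference, and without Krt8 and Krt18 in the luminal gate it was -0.16. In hormone-sensing cells it was 0.838 and 1.11 CPM and was not called. Zeb2 had 30 UMIs in cKO and 21 in Ctrl in luminal cells and a log2 ratio of 0.45 (-0.40 to 1.33), an interval that includes no difference. With equal weight per cell it was 1.06 and was called higher. In progenitors the Zeb2 ratio was 0.57, was called higher in 4 of 12 alternatives, TMM scaling (0.68) among them, and was -0.13 without Krt8 and Krt18 in the luminal gate.

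Kdr stood at 0.521 CPM in cKO and 0.0260 CPM in Ctrl luminal cells, from 42 and 2 UMIs, at a log2 ratio of 4.33 (2.38 to 7.42) that was 2.31 with doublet calls kept. Several endothelial marker genes moved with it. Cdh5, encoding the cadherin of endothelial junctions, stood at 2.31 CPM in cKO and 0.13 CPM in Ctrl luminal cells, Emcn at 1.67 and 0.143 CPM, Cldn5 at 1.20 and 0.0130 CPM, and Tie1 at 0.310 and 0.0260 CPM. Egfl7 stood at 10.2 and 2.34 CPM, Esam at 0.484 and 0.104 CPM and Pecam1 at 3.75 and 2.21 CPM, while Eng was slightly lower in cKO, at 10.5 and 11.6 CPM. All 8 endothelial gate markers together gave 30.4 CPM in cKO and 16.5 CPM in Ctrl luminal cells, with none at 0, but 6 endothelial markers outside the gates gave 23.5 CPM in cKO and 29.3 CPM in Ctrl. The part of endothelial RNA in the Kdr level was not tested. Set against its own endothelial level, Kdr in luminal cells was at 0.423% (0.304 to 0.575) in cKO and 0.0193% (0.00232 to 0.0701) in Ctrl. Glycam1 was at 0.429% and 0.0218%, the same size as Kdr in each library. Endothelial cells made up 8.48% of kept cells in cKO and 3.07% in Ctrl. Zeb1, at 1.64% (1.32 to 2.02) and 2.09% (1.70 to 2.56), and Zeb2, at 4.30% and 2.85%, lay above the Glycam1 share in both libraries. The 6 endothelial markers outside the gates were at 2.53% in cKO and 2.91% in Ctrl, above Zeb1 in both libraries and close to Zeb2 in Ctrl. That sum held 705 UMIs in hormone-sensing cells of Ctrl, where 2 of the 6 were at 0. The gate markers Cdh5, Emcn, Cldn5 and Tie1 were at 0.602%, 0.388%, 0.874% and 0.404% in cKO. In Ctrl they were at 0.0291%, 0.0253%, 0.00643% and 0.0232%, and they lay below Zeb1 in both libraries. Eng, another gate marker, stood at 10.5 CPM in luminal against 242 CPM in endothelial cells of cKO, and at 11.6 against 353 CPM in Ctrl.

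The 27 luminal cells of cKO with a Kdr UMI held 229 CPM of the 6 immune markers and 149 CPM of 6 endothelial markers outside the gates, against 10.4 and 22.1 CPM in those without. Leaving out every epithelial cell with a UMI of Cdh5, Emcn, Cldn5 or Tie1 (chosen after seeing the data) removed 3.55% of luminal cells in cKO and 1.11% in Ctrl. Kdr then had 17 UMIs in cKO and 2 in Ctrl, at 0.222 and 0.0263 CPM, and was under the minimum for a call. Zeb1 then had 1.11 CPM in cKO and 2.08 CPM in Ctrl, a log2 ratio of -0.91, and Ets1 kept a log2 ratio of 0.64.

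**Figure D4:**
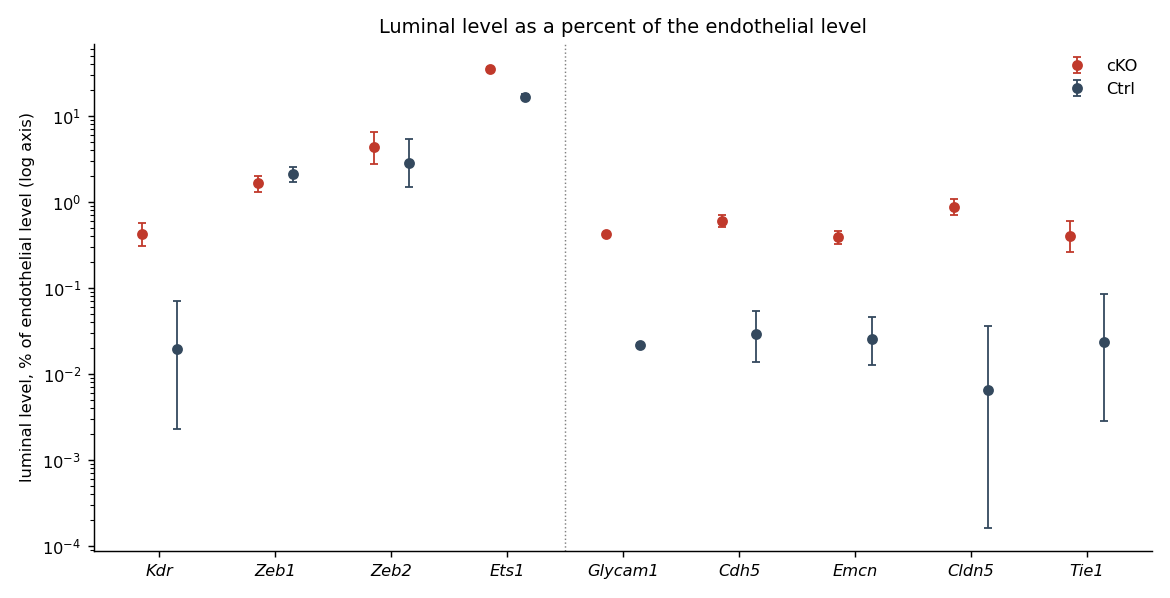
Luminal level as a percent of the endothelial level of the same library (log axis) for Kdr, Zeb1, Zeb2 and Ets1 (left of the dotted line) and for Glycam1 and 4 endothelial markers (right of it), with cKO (red) left of Ctrl (dark blue) and exact 95% intervals. Kdr sits with Glycam1 in each library, at 0.423% in cKO and 0.0193% in Ctrl, while Zeb1 and Zeb2 lie higher and Ets1 highest.

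The other 5 genes differed by less than 1.5-fold in every epithelial class. In luminal cells the log2 ratios were 0.09 for Cfl2, -0.16 for Bmi1, -0.19 for Bap1, -0.34 for Sec23a and -0.51 (-0.73 to -0.28) for Elmo2, so 4 of these 5 leaned lower in cKO. By class, hormone-sensing cells had 2 genes called higher (Ets1 and Kdr) and 0 lower of 8 compared, where 14.1% of genes were called higher and 18.6% lower. The Kdr call there rested on 22 UMIs in cKO, 9 of them in 1 cell, and 1 UMI in Ctrl. It was kept in 8 of 12 alternatives. Progenitors had 0 higher and 1 lower (Zeb1) of 8, where the shares were 9.15% and 14.1%. Basal cells had 1 higher (Ets1) and 1 lower (Zeb1) of 7, where the shares were 9.67% and 8.93%. Endothelial cells, in which neither the microRNAs nor keratin 8 are typical, had 0 of 9 called higher and 0 lower, where the shares were 18.9% and 9.98%. Their log2 ratios ran from -0.45 for Ets1 to 0.44 for Sec23a. In fibroblast-gated cells, with 18 and 5 cells, the values given above were not compared further.

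**Figure D5:**
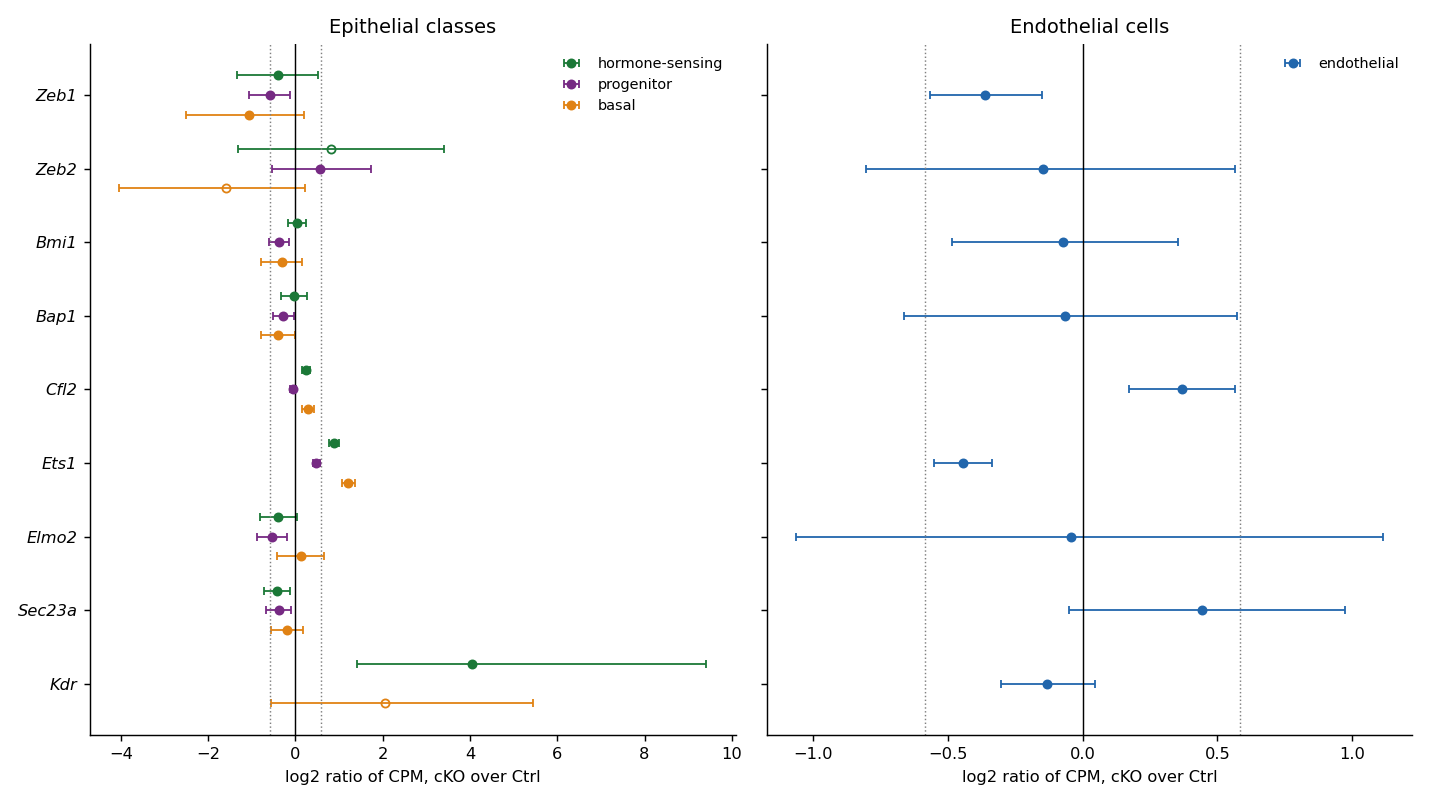
Log2 ratio of CPM, cKO over Ctrl, in hormone-sensing, progenitor and basal cells (left) and in endothelial cells (right, narrower axis), with exact 95% intervals; dotted lines mark 1.5-fold, open points had under 20 UMIs, and Kdr in progenitors is left out because Ctrl had none. Ets1 lies right of 0 in the 3 epithelial classes and left of 0 in endothelial cells, and Zeb1 lies left of 0 in all 4.

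Genes of the same pathways give the setting, and their counts are to be read beside the shares of all genes called. Endothelial over luminal cells had 16.9% higher and 27.7% lower in cKO, and 13.4% and 28.1% in Ctrl. Basal over luminal cells had 17.1% and 25.1% in cKO, and 14.9% and 29.0% in Ctrl. Luminal cells of cKO over Ctrl had 12.8% higher and 16.2% lower. Of 14 epithelial genes tied to ZEB repression, 0 were higher and 14 lower in endothelial than luminal cells of cKO, and likewise 0 and 14 in Ctrl. Epcam, an epithelial adhesion gene, stood at 52.9 against 8688 CPM in cKO and 38.3 against 8371 CPM in Ctrl. Of 10 mesenchymal genes, 8 of 8 compared were higher in endothelial cells of cKO and 7 of 8 in Ctrl, among them the filament gene Vim at 2621 against 17.8 CPM in cKO. Basal cells split the lists, with 9 of the 14 epithelial genes lower in cKO and 10 in Ctrl. Of the mesenchymal genes, 6 of 7 and 7 of 9 were higher. Zeb1 was not called in either library, with intervals that allow a rise or a fall, and Zeb2 was called higher in Ctrl. Between cKO and Ctrl luminal cells, 0 of the 14 epithelial genes were called higher and 5 lower, namely Esrp1, Esrp2, Grhl2, Ovol2 and Tjp3, and Epcam had a log2 ratio of 0.05. Of the mesenchymal genes 1 of 8 was called higher, Snai2, encoding the repressor Slug, at 0.881 and 0.221 CPM, and 4 were called lower, with Sparc, a matrix glycoprotein gene, at 2.59 and 5.85 CPM. Basal cells differed from luminal cells in the epithelial genes. There 5 of 13 compared were called higher in cKO, namely Cldn7, Crb3, Esrp2, Rab25 and Ovol2, and 2 lower, Grhl2 and Ovol1. Over all genes, 9.67% were called higher and 8.93% lower in basal cells.

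Around Kdr, 6 of 9 VEGF receptor, co-receptor and ligand genes were higher in endothelial than luminal cells in each library, while Vegfa, the ligand that KDR binds, was lower, at 13.6 against 80.8 CPM in cKO and 18.3 against 40.3 CPM in Ctrl. In luminal cells 6 of the 9 were called higher in cKO than in Ctrl and 0 lower. They included the endothelial receptor gene Flt1, at 2.32 and 0.999 CPM, and Vegfa, at 80.8 and 40.3 CPM, a log2 ratio of 1.0. Of 18 other ETS genes, 4 of 18 compared were higher and 4 lower in endothelial cells of cKO, and 4 of 17 higher and 5 lower in Ctrl (Fli1, Erg, Elk3 and Elf4 higher and Ets2, Etv1, Etv4 and Spdef lower in both). In luminal cells 3 of 16 were called higher in cKO and 2 lower, where 12.8% of all genes were higher and 16.2% lower. Ets2 was higher, at 267 and 163 CPM, a log2 ratio of 0.71. In basal cells, where Ets1 had its largest ratio, 0 of 15 were called higher and 1 lower. The basal shares over all genes were 9.67% and 8.93%.

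Partners of Bmi1, Bap1, Cfl2, Elmo2 and Sec23a were looked at in the same way. Of 24 Polycomb and BAP1-complex genes, 0 were higher in endothelial than luminal cells in either library and 6 lower in each. Over all genes, 27.7% were lower in cKO and 28.1% in Ctrl. Between cKO and Ctrl luminal cells, 1 of the 24 was called higher and 1 lower. Of 13 actin-severing factors and their regulators, 3 were higher and 3 lower in endothelial cells of cKO, while Cfl1, the non-muscle cofilin gene, at 767 against 564 CPM, was not called. Of 10 ELMO and DOCK genes, 5 were higher and 2 lower in endothelial cells of both libraries, the 5 being Elmo1, Dock1, Dock4, Dock6 and Dock9. Of 12 COPII genes compared, 3 were higher in endothelial cells of cKO and 0 in Ctrl, and in luminal cells 0 were called higher and 3 lower in cKO. The 26 further genes reported as miR-200 targets include Fn1, Flt1 and Vegfa, which are also in the lists above. Of the 26, 11 of 25 compared were higher and 3 lower in endothelial cells of cKO, and 10 of 24 and 3 in Ctrl. Between cKO and Ctrl luminal cells 4 of 25 were called higher and 3 lower, where 12.8% of all genes were higher and 16.2% lower. The cyclin gene Ccnd1 stood at 134 and 87.1 CPM, while the membrane linker gene Msn, at 130 and 99.5 CPM, was not called.

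The genes with the most similar pattern were found from log2(CPM + 1) over 10 values, 5 classes in 2 libraries, and the fibroblast-gated values rest on 18 and 5 cells. For Kdr they were S1pr1, Cd93 and Mfng, with Pearson's r of 0.998, 0.998 and 0.992. For Zeb1 they were Man2b1, Calcrl and Ifnar2 (0.983, 0.978 and 0.977), and for Zeb2 Clcn5, Sept2 and Impact (0.989, 0.979 and 0.973). For Ets1 they were Sh3glb1, Cxcl10 and Cfb (0.951, 0.945 and 0.944), a chemokine gene and a complement gene among them. The others were led by Mindy1 for Bmi1 (0.990), Inpp5a for Bap1 (0.976), Rgs19 for Cfl2 (0.971), Khsrp for Elmo2 (0.996) and Dcun1d3 for Sec23a (0.987). These are descriptions over few points, chosen as the highest of 9907 genes.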

How the data were processed

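Messenger RNA was counted in single cells of 2 libraries, 1 for cKO and 1 for Ctrl, prepared, per the labels' protocols, with version 2 of the 10x Chromium 3′ kit. The deposited values are counts, whole numbers of UMIs per gene and barcode with no normalization; Cell Ranger 2 and mm10 are named in the submitters' processing notes, while per the file headers the software version is 3.0. The members and gene lists were chosen with earlier results of these data known.

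Cells with at least 500 genes and at most 10% mitochondrial UMIs were kept, and Scrublet (scanpy 1.11.5, expected rate 0.8% per 1000 cells) removed 55 cKO and 27 Ctrl cells, 1.00% and 0.790%, so undetected doublets remain. Each cell was scored for 9 marker lists by the mean of ln(1 + UMIs per 10000) and joined the highest class at a score of 0.5 or more with a margin of 0.5. In cKO 80 endothelial cells lay within 0.25 of that limit inside it and 44 outside; in Ctrl 9 and 7. A margin of 0.3 split luminal and endothelial kinds. Cells in no class numbered 158 in cKO and 51 in Ctrl.

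UMIs were summed per class (SciPy 1.17.1). Ratios carry exact conditional binomial 95% intervals, and sums of 0 were set to 3 UMIs as a bound, also in medians over all genes. Named pathway genes are at most 4 per list, those with most UMIs in gated cells; names listed after a count are its called members. Genes of similar pattern are the 3 with the highest r per member, with at least 500 UMIs in gated cells. The call rule was tested on simulated Poisson counts. These hold no clustering of UMIs in single cells and no spread between libraries, so the test covers neither. Alternatives used TMM factors (edgeR 4.0.16), median-of-ratios factors (DESeq2 1.42.0), other gates, filters and minimums. UTRs came from GENCODE M21, in which 99.6% of gene identifiers were found, and were scanned for seed matches.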

Additional observations from a re-analysis of the deposited data

How the results depend on the processing

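With 1 library per group no replicate could be left out, and intervals do not cover the spread between mice. No paired analysis was possible because each group has a single library. Of 22 called ratios of single genes, which leave out the fibroblast-gated and the lymphatic over blood calls, 12 kept their call under all 12 alternatives, among them the ratios of Zeb1, Ets1 and Kdr in endothelial over luminal cells of both libraries, Zeb1 lower in luminal cells of cKO, and Ets1 higher in basal cells of cKO. In basal over luminal cells of cKO, the count called higher was 2 with a gate of 0.25, 1 without Krt8 and Krt18 in the luminal gate and 1 with median-of-ratios scaling, and 1 gene, Zeb1, was called lower without epithelial cells holding an endothelial UMI (chosen after seeing the data). In Ctrl that higher count was 2 with no low-count filter and 0 with at least 50 UMIs. In cKO over Ctrl luminal cells, 1 gene was called higher with at least 50 UMIs and 1 without cells holding an endothelial UMI; with equal weight per cell Ets1, at 0.58, was not called and Zeb2, at 1.06, was called higher. In basal cells, no filter gave 2 higher and 2 lower, while 0 were lower with at least 50 UMIs and 0 without Krt8 and Krt18 in the gate. In endothelial cells, equal weight per cell called 2 genes higher, Zeb2 and Sec23a. Kdr in hormone-sensing over progenitor cells of cKO turned to -0.24 without Krt8 and Krt18 in the gate. With Scrublet calls kept, Kdr in luminal cells of cKO over Ctrl was 2.31. The genes with a higher share of endothelial than luminal cells numbered 8 in cKO without thinning, and 6 in cKO and 3 in Ctrl in a second draw chosen after seeing the data. With 6-base sites, 8 genes held a site, where 49.5% of the 21037 genes with an annotated 3′ UTR did, against 25.7% with 7-base sites. The cause of these shifts was not tested.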
